A study of Homo sapiens with 5 samples.

Results

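The genes described here are 35 genes of homologous recombination, the Fanconi anaemia pathway and the checkpoint that serves them, chosen by symbol. Among probe sets annotated with 1 gene alone, the one of highest mean represented each gene. Of the 35, 30 had such a probe set, among 19775 genes in all. ATRIP was listed only on probe sets that carry several symbols. It was not analysed here, nor were BRCA2, RBBP8, FANCA and FANCD2. All 30 measured genes passed the level filter, set at the median over all probe sets, 140 units, as did 14894 genes in total, so the filter removed no member.

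RNA was profiled in 5 established human cell lines with 1 Affymetrix array per line. PANC1, HPAF1, SU86.86 and L3.6 are known as pancreatic carcinoma lines. HPDE is known as immortalised pancreatic duct epithelium, usually made with papillomavirus oncogenes, although the source label gives all 5 as pancreatic cancer lines. All were untreated and grown by the supplier's protocol, and each is a single line grown in culture. The source label is the same for every line, so no label groups them further. There was no replicate culture, so a single line's value comes without an error.

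Homologous recombination repairs a broken chromosome by copying the intact sister. Ends are sensed and trimmed, the BRCA proteins prepare the exposed strand to pair with the sister, and helicases and nucleases resolve the joined molecules. The Fanconi pathway unhooks crosslinks between the strands: a core complex with the enzyme UBE2T attaches ubiquitin to the FANCD2 and FANCI pair, and recombination completes the repair. Many of these genes are known to be transcribed chiefly in S and G2 phase, and defects of the pathway are known in a subset of pancreatic carcinomas.

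The arrays were close in scale, with medians between 137 and 143 intensity units. On 9 spike-in probe sets the standard deviation between arrays was at most 0.14 on the log2 scale, which covers hybridisation and scanning alone. The 3′ to 5′ signal ratio of the maker's actin controls was between 1.02 and 1.22 in the carcinoma lines and 1.34 in HPDE, and that of GAPDH lay between 1.02 and 1.04. Of 6 epithelial and duct markers, 5 were above the level filter in PANC1, where KRT7 was not, and all 6 in the other lines. Of the 4 acinar, 5 islet and 4 leukocyte markers measured, at most 1, 1 and 2 were above it in any line. The leukocyte marker LCP1 reached a log2 level of 12.03 in SU86.86, while PTPRC stayed below the filter in every line. Among 7 fibroblast and 5 endothelial markers, 3 to 4 and 2 were above it, with COL1A1 between 10.05 and 10.78. Of the basal markers, KRT14 had a log2 level of 13.64 in HPDE, with 6.99 to 7.44 elsewhere. KRT5 had 13.83 in HPDE, 7.26 in HPAF1, 12.41 in L3.6, 7.30 in PANC1 and 9.68 in SU86.86, and SFN ranged from 11.97 to 14.03. The part of these marker levels in the results below was not tested.

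The recombination and Fanconi genes were most often lowest in HPAF1 or HPDE and highest in L3.6 or PANC1. Levels below are deposited intensities, and differences are on the scale log2(intensity + 71.1), which understates the fold change of dim genes. The level was lowest in HPAF1 for 13 of 30 members, against 22.3 percent of all 14894 genes, and lowest in HPDE for 9, against 22.7 percent. It was lowest in SU86.86 for 4 (23.6 percent), in L3.6 for 4 (14.4 percent) and in PANC1 for 0 (17.0 percent). Some of these lowest places were near ties, within the largest spike-in spread of 0.14. HPAF1 lay below HPDE by 0.03 for RAD51D, 0.05 for BARD1, 0.08 for RAD54B, 0.09 for RAD51AP1 and 0.105 for XRCC3. For FANCL it lay 0.045 below L3.6. HPDE lay below HPAF1 by 0.005 for BLM and 0.04 for FANCF. The split between HPAF1 and HPDE is therefore loose for such genes. The highest level lay in L3.6 for 11 members (19.4 percent of all genes), in PANC1 for 10 (20.2 percent), in SU86.86 for 6 (14.8 percent), in HPDE for 2 (22.0 percent) and in HPAF1 for 1 (23.7 percent). HPAF1 and HPDE were the 2 lowest lines for 15 members, against 13.5 percent of all genes, and the next pair, SU86.86 and HPDE, for 4 (13.9 percent). The first 15 were BRCA1, BARD1, BRIP1, RAD51AP1, RAD51D, XRCC3, RAD54L, RAD54B, CHEK1, EXO1, BLM, FANCF, FANCG, UBE2T and FANCI. The members are related genes measured on the same arrays, so the counts describe these 5 arrays.

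**Figure D1:**
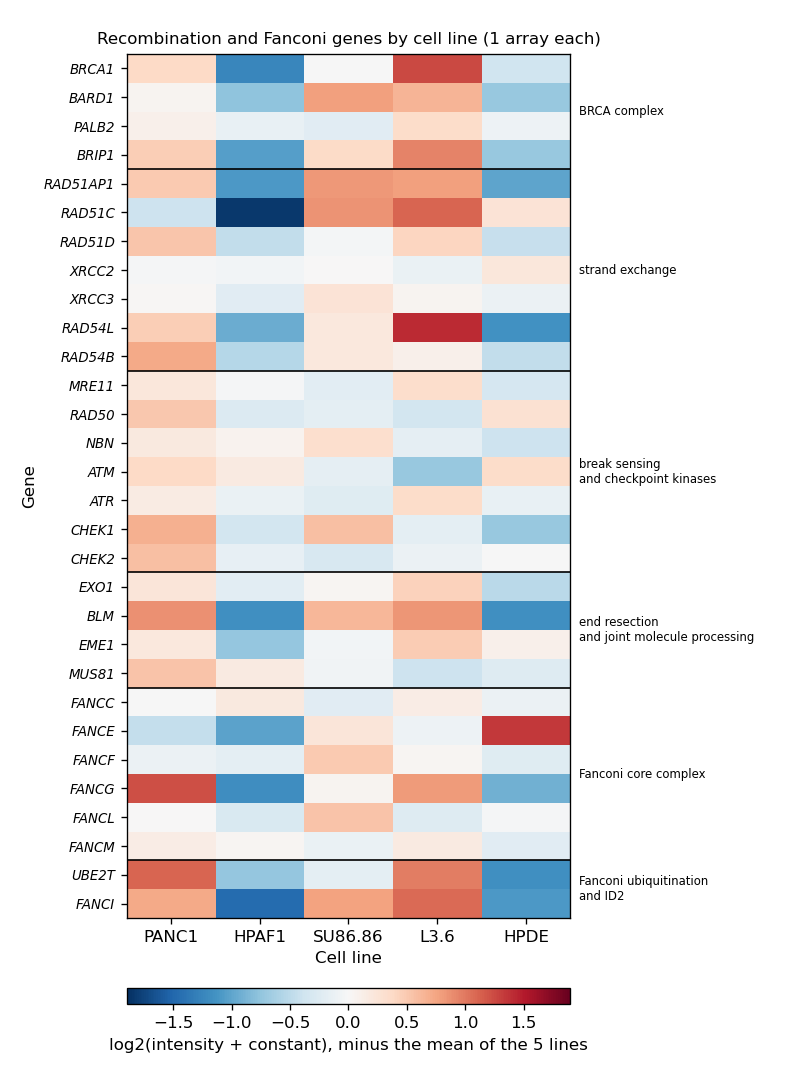
Level of each of the 30 measured genes in each line, as log2(intensity + constant) minus the gene's mean over the 5 lines, with genes grouped by role. The columns of HPAF1 and HPDE are mostly blue for the 15 genes lowest in those lines, while FANCE is red in HPDE and RAD51C is the darkest blue cell, in HPAF1.

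The range over the 5 lines was at least 2-fold for 15 of 30 members, against 42.4 percent of all genes, and at least 4-fold for 8, against 13.6 percent. The median range was 1.05 log2 units for the members and 0.85 for all genes. The 8 widest were RAD51C, RAD54L, FANCI, BRCA1, FANCG, FANCE, UBE2T and BLM. BRIP1, with a range of 1.98, fell just short of 4-fold. The narrowest were XRCC2 (0.34), FANCM (0.38) and FANCC (0.40).

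**Figure D2:**
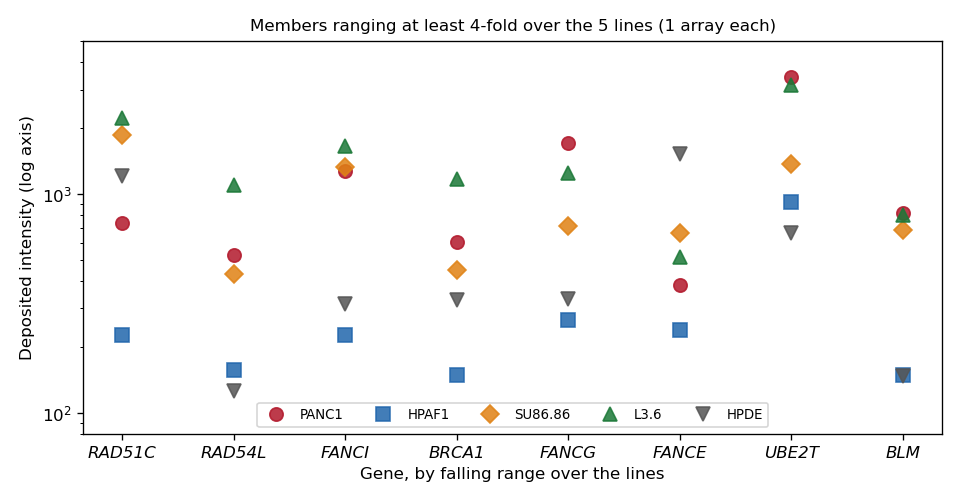
Deposited intensity, on a log axis, of the 8 genes whose level ranged at least 4-fold, with 1 point per line and no error bars since each line had 1 array. In 6 of the 8 genes HPAF1 and HPDE are the 2 lowest points. The exceptions are RAD51C, where HPDE is in the middle, and FANCE, where HPDE is the highest.

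Start-site sequences are shown for 5 of these 8 genes because they contrast 3 patterns across the lines: BLM, UBE2T and FANCG were low in both HPAF1 and HPDE, RAD51C was low in HPAF1, and FANCE was high in HPDE. Each is the 250 bases before the annotated start in RefSeq (GRCh38.p14), read 5′ to 3′ on the gene's strand. Capitals mark exact matches, on either strand, to CCAAT (the box bound by NF-Y), to TTTGAA or TTCGAA (the cell cycle homology region), or to TTTCCCGC, TTTGGCGC or TTTCGCGC (forms of the E2F site). BLM lies at chr15:90717096-90717345 on the plus strand and has 3 matches, all to CCAAT. UBE2T lies at chr1:202341937-202342186 on the minus strand and has 3, of which 2 are to CCAAT and 1 to TTTGAA. FANCG, at chr9:35079943-35080192 on the minus strand, RAD51C, at chr17:58692323-58692572 on the plus strand, and FANCE, at chr6:35452088-35452337 on the plus strand, have 0 matches each.
BLM: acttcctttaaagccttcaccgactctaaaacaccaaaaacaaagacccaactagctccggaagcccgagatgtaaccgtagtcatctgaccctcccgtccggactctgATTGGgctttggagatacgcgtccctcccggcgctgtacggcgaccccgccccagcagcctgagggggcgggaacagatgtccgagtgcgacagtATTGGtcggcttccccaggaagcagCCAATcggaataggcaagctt
UBE2T: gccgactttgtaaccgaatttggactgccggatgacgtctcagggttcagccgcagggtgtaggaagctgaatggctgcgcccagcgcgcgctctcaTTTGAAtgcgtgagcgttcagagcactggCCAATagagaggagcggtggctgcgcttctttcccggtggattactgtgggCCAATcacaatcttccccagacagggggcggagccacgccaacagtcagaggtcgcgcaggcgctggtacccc
FANCG: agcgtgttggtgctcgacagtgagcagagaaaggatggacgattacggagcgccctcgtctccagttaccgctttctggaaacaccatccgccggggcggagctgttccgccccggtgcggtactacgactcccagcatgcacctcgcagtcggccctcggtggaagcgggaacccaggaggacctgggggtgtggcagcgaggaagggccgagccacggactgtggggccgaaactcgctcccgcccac
RAD51C: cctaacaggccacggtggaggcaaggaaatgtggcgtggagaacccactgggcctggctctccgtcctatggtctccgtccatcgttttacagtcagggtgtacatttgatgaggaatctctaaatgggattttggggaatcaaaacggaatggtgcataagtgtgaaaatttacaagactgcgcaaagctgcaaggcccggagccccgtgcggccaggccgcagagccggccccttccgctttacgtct
FANCE: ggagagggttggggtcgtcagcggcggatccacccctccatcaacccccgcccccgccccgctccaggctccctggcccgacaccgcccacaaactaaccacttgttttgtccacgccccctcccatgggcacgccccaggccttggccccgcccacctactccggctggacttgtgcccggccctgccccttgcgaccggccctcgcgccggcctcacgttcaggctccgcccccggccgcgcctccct

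Over the full windows, from 250 bases before to 50 after each start, 27 of the 30 members had a sequence. RAD54B, NBN and FANCI were the others. CCAAT stood in at least 1 window of 15 of these 27 (55.6 percent), against 42.4 percent of the 11885 tested genes with a window and 34.6 percent of all 35116 windows. An E2F form was found in 3 (11.1 percent), against 5.09 percent of those tested genes and 2.74 percent of all windows. TTTGAA was found in 4 (14.8 percent), against 14.3 and 15.2 percent, and TTCGAA in 0, against 2.2 and 1.45 percent. The shares of members and of tested genes count a gene if any of its windows matched, whereas the share of all windows counts each window singly. By gene, over all 27305 genes with a window, CCAAT was found in 39.7 percent and an E2F form in 3.3 percent. TTTGAA was found in 18.2 percent of them and TTCGAA in 1.82 percent. None of the 6 motifs contains another. BLM and FANCG show that genes low in the same lines could hold 3 matches or 0 in the stretches printed. A match is a description of these letters and not a binding site.

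BRCA1, a ubiquitin ligase that steers broken ends towards recombination, had the widest range of its group. Its intensity was 328 in HPDE, 149 in HPAF1, 1169 in L3.6, 602 in PANC1 and 448 in SU86.86. L3.6 was the highest line and HPAF1 the lowest, close to the median of all probe sets. L3.6 stood 1.57 above the mean of the other 4 lines (SE 0.65, limma adjusted p = 1) and HPAF1 1.55 below it (SE 0.65, limma adjusted p = 0.542). The SE and p come from a limma fit over all 14894 genes that takes the spread between the other 4 lines as the error. BARD1, the obligate partner of BRCA1, was at 421 in HPDE, 404 in HPAF1, 1202 in L3.6, 769 in PANC1 and 1327 in SU86.86. Here SU86.86 and not L3.6 was highest, by 0.13 over L3.6, within the largest spread of the spike-in controls.

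BRIP1, a helicase that binds BRCA1, was at 236 in HPDE, 176 in HPAF1, 901 in L3.6, 635 in PANC1 and 580 in SU86.86. HPAF1 and HPDE lay below the other 3 lines, which were within 0.58 log2 units of each other. PALB2, which joins BRCA1 to BRCA2, differed least of the group, at 505 in HPDE, 485 in HPAF1, 712 in L3.6, 588 in PANC1 and 457 in SU86.86. All 4 measured members of the group were below the mean of the other lines in both HPAF1 and HPDE, with medians of -1.13 and -0.69, and above it in L3.6, with a median of 0.99.

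Among genes of strand exchange, RAD51C stood apart. It encodes a protein needed for recombination at breaks. Its intensity was 1212 in HPDE, 228 in HPAF1, 2219 in L3.6, 741 in PANC1 and 1866 in SU86.86. HPAF1 alone was low, and HPDE lay above PANC1, unlike the genes low in both. HPAF1 stood 2.29 below the mean of the other lines (SE 0.62, limma adjusted p = 0.319, unadjusted p = 0.0158), the lowest p of any member in that line. RAD54L, a motor protein of strand exchange, was at 126 in HPDE, 157 in HPAF1, 1097 in L3.6, 529 in PANC1 and 432 in SU86.86. L3.6 was the highest line by far, and HPDE lay below the median of all probe sets.

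RAD51AP1, a DNA-binding protein of strand exchange, was at 391 in HPDE, 364 in HPAF1, 1523 in L3.6, 1244 in PANC1 and 1577 in SU86.86. The 3 high lines lay within 0.33 log2 units of each other and the 2 low lines within 0.09. RAD54B, a relative of RAD54L, was at 288 in HPDE, 268 in HPAF1, 456 in L3.6, 743 in PANC1 and 496 in SU86.86, so that PANC1 and not L3.6 was highest. RAD51D, a relative of RAD51C, ranged from 173 in HPAF1 to 413 in PANC1. XRCC2 and XRCC3, of the same family, were nearly level, between 183 and 251 and between 205 and 315. XRCC2 had its highest value in HPDE. Their levels lay not far above the median of all probe sets, where differences are compressed.

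Of the 7 sensors and kinases measured, CHEK1 and ATM ranged at least 2-fold over the lines, against 42.4 percent of all genes, and the group's median range was 0.87 log2 units, against 0.85 for all genes. CHEK1, the checkpoint kinase activated by ATR, was at 588 in HPDE, 784 in HPAF1, 877 in L3.6, 1664 in PANC1 and 1539 in SU86.86. L3.6 was thus near HPAF1 for this gene, 0.87 below PANC1. That order held on a second probe set of CHEK1, while of its 4 probe sets the third in brightness put L3.6 lowest and the dimmest put it highest. ATM, the kinase that answers double-strand breaks, was at 638 in HPDE, 556 in HPAF1, 266 in L3.6, 657 in PANC1 and 422 in SU86.86. L3.6 was the lowest line, 0.90 below the mean of the others (SE 0.29, limma adjusted p = 1, unadjusted p = 0.0296). Of 5 ATM probe sets above the level filter, the 3 brightest put L3.6 lowest. The other 2 placed it above HPDE, by 0.15 and 0.32.

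CHEK2, the kinase downstream of ATM, was at 386 in HPDE, 337 in HPAF1, 354 in L3.6, 611 in PANC1 and 298 in SU86.86. PANC1 was highest and stood 0.72 above the other lines (SE 0.22, limma adjusted p = 0.725, unadjusted p = 0.023). RAD50, a subunit of the MRE11 nuclease complex, was at 1377 in HPDE, 926 in HPAF1, 859 in L3.6, 1633 in PANC1 and 970 in SU86.86. On the probe sets used, PANC1 and HPDE were its 2 highest lines, as they were for ATM and CHEK2. The RAD50 probe set of middle brightness put HPDE lowest, while the dimmest again had HPDE and PANC1 highest. Of the other ATM probe sets, only the brightest also had PANC1 and HPDE as the 2 highest lines. The other subunits of the MRE11 complex varied less, MRE11 from 596 to 976 and NBN from 1115 to 1867. ATR, the kinase of stalled forks, ranged from 905 in SU86.86 to 1391 in L3.6.

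Among genes that trim ends or process joined molecules, the helicase BLM had the widest range. Its intensity was 148 in HPDE, 149 in HPAF1, 804 in L3.6, 820 in PANC1 and 686 in SU86.86. The 3 high lines lay within 0.24 log2 units and the 2 low ones were 0.005 apart, near the median of all probe sets, where differences are compressed. HPDE stood 1.46 below the mean of the other lines (SE 0.89, limma adjusted p = 0.783), and HPAF1 1.45 below (SE 0.89, limma adjusted p = 0.713). In each of these fits the other low line widens the SE. EME1, which forms a nuclease with MUS81, was at 1126 in HPDE, 603 in HPAF1, 1502 in L3.6, 1224 in PANC1 and 1012 in SU86.86. HPAF1 was the lowest line, by 0.92 from the mean of the others (SE 0.26, limma adjusted p = 0.342, unadjusted p = 0.0192). EXO1, an exonuclease that lengthens resected ends, was at 689 in HPDE, 866 in HPAF1, 1400 in L3.6, 1199 in PANC1 and 1035 in SU86.86. MUS81 was lowest in L3.6, with 1114 in HPDE, 1508 in HPAF1, 1003 in L3.6, 1970 in PANC1 and 1279 in SU86.86.

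In the Fanconi core complex, FANCG and FANCE varied widely and in different lines. FANCG, a scaffold subunit, was at 331 in HPDE, 264 in HPAF1, 1251 in L3.6, 1704 in PANC1 and 718 in SU86.86. PANC1 was highest and HPAF1 and HPDE lowest, with SU86.86 between. FANCE, which links the core to FANCD2, was at 1525 in HPDE, 239 in HPAF1, 516 in L3.6, 386 in PANC1 and 663 in SU86.86. HPDE was the highest line, 1.68 above the mean of the others (SE 0.51, limma adjusted p = 0.516, unadjusted p = 0.0228). FANCE had 1 probe set above the filter, so no other checks this. FANCF, an adaptor of the core, was at 425 in HPDE, 437 in HPAF1, 523 in L3.6, 467 in PANC1 and 745 in SU86.86. FANCL, the ubiquitin ligase of the core, was at 1342 in HPDE, 1103 in HPAF1, 1140 in L3.6, 1370 in PANC1 and 2009 in SU86.86. SU86.86 was the highest line for both. The second probe set of FANCF also had SU86.86 highest but put PANC1 lowest. FANCC ranged from 348 to 483, highest in HPAF1 by 0.04 over L3.6, within the largest spike-in spread. Its other probe set above the filter put PANC1 highest. The translocase FANCM ranged from 151 to 218.

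The 2 measured genes of the ubiquitination step both ranged more than 4-fold. UBE2T, the enzyme that carries ubiquitin to FANCD2 and FANCI, was at 664 in HPDE, 919 in HPAF1, 3153 in L3.6, 3448 in PANC1 and 1379 in SU86.86. PANC1 and L3.6 lay within 0.13 log2 units of each other, and SU86.86 stood between them and the low lines. FANCI was at 315 in HPDE, 228 in HPAF1, 1657 in L3.6, 1282 in PANC1 and 1329 in SU86.86. Its 3 high lines lay within 0.35 log2 units. HPAF1 stood 1.83 below the mean of the others (SE 0.90, limma adjusted p = 0.617).

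Set against HPDE, 12 of 30 members were higher by some amount in HPAF1 (52.0 percent of all genes), 23 in L3.6 (53.5 percent), 27 in PANC1 (53.0 percent) and 21 in SU86.86 (47.4 percent). These differences have 1 array on each side and share the HPDE array, so they have no replicate check. In PANC1 9 of 30 members were at least 2-fold higher than in HPDE, against 8.47 percent of all genes, and 1 lower, against 9.26 percent. The higher ones were UBE2T (2.26), FANCG (2.14), BLM (2.03), FANCI (1.81), RAD54L (1.61), RAD51AP1 (1.51), CHEK1 (1.40), BRIP1 (1.20) and RAD54B (1.18). In SU86.86 7 were higher (8.44 percent of all genes) and 1 lower (7.72 percent), led by FANCI (1.86), RAD51AP1 (1.83) and BLM (1.79), with UBE2T (0.98) and FANCG (0.97) just short of 2-fold. In L3.6 9 were higher (6.55 percent) and 2 lower (8.59 percent), led by RAD54L (2.57), FANCI (2.16) and UBE2T (2.13). BRCA1 was higher by 1.63 in L3.6, 0.75 in PANC1 and 0.38 in SU86.86. In HPAF1 0 of 30 were higher, against 7.77 percent of all genes, and 2 were lower, against 9.27 percent. Those were FANCE (-2.36) and RAD51C (-2.10).

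FANCE was the lower member in PANC1 (-1.81) and SU86.86 (-1.12), and FANCE (-1.44) and ATM (-1.07) were the lower members in L3.6. The count of 2 in L3.6 was 1 with the mean of all probe sets, with the most variable probe set, without probe sets of shared-match suffix, after quantile normalization, or with a larger added constant. The median of the 30 members was -0.07 in HPAF1, 0.50 in L3.6, 0.58 in PANC1 and 0.47 in SU86.86. The medians of all genes in the same comparisons were 0.02, 0.04, 0.03 and -0.03. The median of the members in PANC1 was 0.74 with a stricter level filter, which left 27 of them.

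Against the mean of the other 4 lines, 9 members were at least 2-fold lower in HPAF1, against 6.3 percent of all genes. They were RAD51C, FANCI, BRCA1, FANCG, BLM, RAD51AP1, BRIP1, FANCE and RAD54L, and 0 were higher (6.96 percent). In HPDE 6 were lower (5.57 percent) and 1, FANCE, higher (6.48 percent). In L3.6 8 were higher (2.99 percent) and 0 lower (4.72 percent). That count was 3 without HPAF1 and 5 without HPDE. In PANC1 3 were higher (5.38 percent), namely FANCG, UBE2T and BLM, and 0 lower (5.54 percent). The higher count was 6 without SU86.86 and 5 without L3.6. In SU86.86 2 were higher (5.29 percent), RAD51C and RAD51AP1, and 0 lower (2.59 percent). The higher count was 0 without HPAF1, 1 without HPDE, and 5 without PANC1 or without L3.6.

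By limma, 0 of the 30 members passed an adjusted p of 0.05 in any line. Over all genes 36 passed in HPAF1 (0.242 percent), 4 in PANC1 (0.0269 percent), 4 in HPDE (0.0269 percent) and 0 in SU86.86 and in L3.6 (0.0 percent each). At an unadjusted p under 0.05 the members were RAD51C and EME1 in HPAF1, against 10.1 percent of all genes, and CHEK2 in PANC1 (5.56 percent). They were FANCF and FANCL in SU86.86 (3.74 percent), where 557 genes reached that level, ATM in L3.6 (3.37 percent), where 502 did, and FANCE in HPDE (8.23 percent). Each count of 1 or 2 in 30 is near that background. The fit has 3 residual degrees of freedom, takes the single line to vary like the remaining 4, and measures the spread between different lines, not between cultures.

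Other genes of the pathway were also lowest mainly in HPAF1. Of 57 listed genes 54 were tested. In HPAF1 0 of the 54 were at least 2-fold higher than in HPDE (7.77 percent of all genes) and 8 lower (9.27 percent). In L3.6 6 were higher (6.55 percent) and 1 lower (8.59 percent), and in PANC1 9 were higher (8.47 percent) and 0 lower (9.26 percent). In SU86.86 3.7 percent of them, 2 genes, were higher, against 8.44 percent of all genes, and 7.41 percent, 4 genes, were lower, against 7.72 percent. Their medians were -0.41 in HPAF1, 0.29 in L3.6, 0.33 in PANC1 and 0.01 in SU86.86. HPAF1 was the lowest line for 30 of the 54, against 22.3 percent of all genes, and HPDE for 11, against 22.7 percent. CLSPN, the adaptor of CHEK1, was at 90.5 in HPDE, 93.8 in HPAF1, 436 in L3.6, 781 in PANC1 and 395 in SU86.86, with both low lines below the level filter. TIPIN, a replication fork protein, was at 1045 in HPDE, 357 in HPAF1, 2054 in L3.6, 2202 in PANC1 and 1413 in SU86.86. The helicase RECQL was at 1084 in HPDE, 558 in HPAF1, 4029 in L3.6, 1910 in PANC1 and 2221 in SU86.86. The histone H2AX was at 1418 in HPDE, 2450 in HPAF1, 5911 in L3.6, 5781 in PANC1 and 7132 in SU86.86. HPAF1 was thus the lowest line for TIPIN and RECQL and HPDE for H2AX, with a difference of 2.27 between SU86.86 and HPDE.

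Genes of mitosis and replication, which mark cycling cells, had a median range over the lines of 2.64 and 2.08 log2 units, against 1.05 for the recombination members. The known peak of many members in S and G2 phase makes this the nearest comparison, and their part in the members' differences was not tested. In bulk samples fewer cycling cells and less RNA per cell cannot be told apart. Against HPDE, the median of the 20 mitotic genes was 0.67 in HPAF1, 2.39 in L3.6, 2.51 in PANC1 and 1.92 in SU86.86. That of the 28 replication genes was -0.08, 1.504, 1.47 and 1.13. In HPAF1 all 20 mitotic genes were above HPDE by some amount, with 7 at least 2-fold higher. Of the 28 replication genes 12 were above it, as were 12 of the 30 recombination members and 15 of the 54 others of the pathway, against 52.0 percent of all genes. MKI67, a marker of cycling cells, was at 176 in HPDE, 606 in HPAF1, 1761 in L3.6, 1411 in PANC1 and 864 in SU86.86. HPDE was lowest for MKI67, by 1.45 below HPAF1. Of the members, 12 were likewise higher in HPAF1 than in HPDE, among them UBE2T (0.43), CHEK1 (0.375), EXO1 (0.30) and RAD54L (0.21). The other 18 were lower in HPAF1, among them BRCA1, FANCI and FANCG, by 0.86, 0.37 and 0.26. AURKB, a kinase of chromosome segregation, was at 237 in HPDE, 806 in HPAF1, 3245 in L3.6, 2721 in PANC1 and 3336 in SU86.86. The motor protein KIF20A was at 146 in HPDE, 1354 in HPAF1, 2125 in L3.6, 2005 in PANC1 and 2000 in SU86.86. HPDE was the lowest line for both. The spindle factor TPX2 was at 720 in HPDE, 2127 in HPAF1, 4627 in L3.6, 6898 in PANC1 and 5762 in SU86.86. The checkpoint kinase BUB1B was at 352 in HPDE, 694 in HPAF1, 3087 in L3.6, 3619 in PANC1 and 1728 in SU86.86.

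HPAF1 and HPDE were the 2 lowest lines for 25 of 28 replication genes and 20 of 20 mitotic genes, against 13.5 percent of all genes. For the members the count was 15 of 30, and for the others of the pathway 20 of 54. TYMS, which makes thymidylate, was at 341 in HPDE, 928 in HPAF1, 5714 in L3.6, 12190 in PANC1 and 4963 in SU86.86. The reductase subunit RRM2 was at 378 in HPDE, 2245 in HPAF1, 10300 in L3.6, 9400 in PANC1 and 9485 in SU86.86. HPDE was the lowest line for both, followed by HPAF1. Across the 28 replication genes, however, HPAF1 was lowest for 16 (22.3 percent of all genes) and HPDE for 11 (22.7 percent). All 20 mitotic genes were lowest in HPDE. The replication factor MCM10 was at 71.2 in HPDE, below the level filter, 141 in HPAF1, 1753 in L3.6, 1164 in PANC1 and 862 in SU86.86. Thymidine kinase TK1 was at 393 in HPDE, 1302 in HPAF1, 4166 in L3.6, 3231 in PANC1 and 2873 in SU86.86. The clamp PCNA was not low in HPDE, at 4161 in HPDE, 3593 in HPAF1, 5407 in L3.6, 6877 in PANC1 and 3860 in SU86.86.

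**Figure D3:**
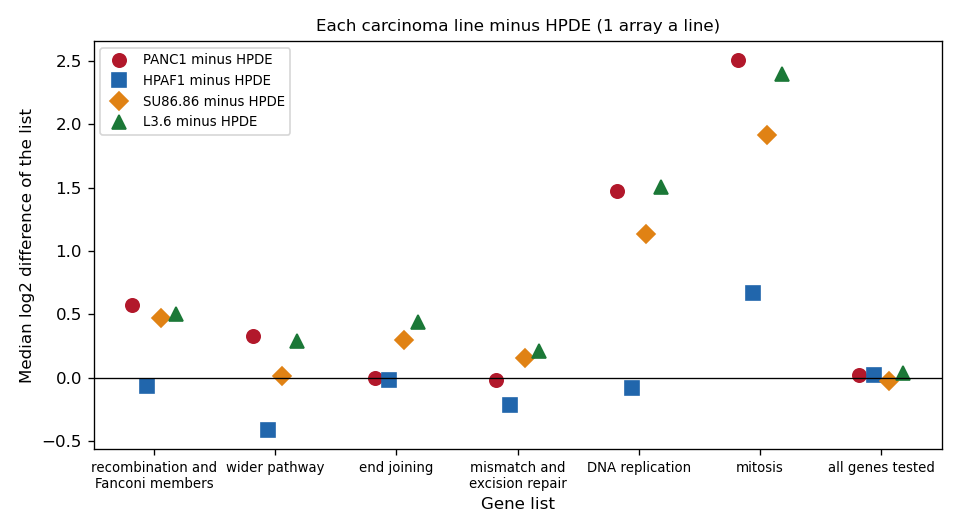
Median log2 difference from HPDE of each gene list, with 1 point per carcinoma line. The recombination and Fanconi members lie near 0.5 in PANC1, SU86.86 and L3.6 and at -0.07 in HPAF1, while the mitotic genes lie at 1.92 to 2.51 and, in HPAF1, 0.67.

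As lists, other repair routes had medians between -0.22 and 0.44 against HPDE. The 12 end joining genes had medians of -0.01 in HPAF1, 0.44 in L3.6, -0.004 in PANC1 and 0.30 in SU86.86, each minus HPDE. The 19 genes of mismatch and excision repair had medians of -0.22, 0.21, -0.01 and 0.16. HPAF1 and HPDE were the 2 lowest lines for 4 of the 12 and 6 of the 19, against 13.5 percent of all genes. PARP1, a sensor of nicked DNA, was at 1247 in HPDE, 678 in HPAF1, 3374 in L3.6, 2858 in PANC1 and 3163 in SU86.86. MSH6, a mismatch sensor, was at 2048 in HPDE, 537 in HPAF1, 3267 in L3.6, 2836 in PANC1 and 2914 in SU86.86. HPAF1 was the lowest line for both. POLM, an end joining polymerase, was at 153 in HPDE, 581 in HPAF1, 297 in L3.6, 131 in PANC1 and 1116 in SU86.86. LIG4, the end joining ligase, was at 1054 in HPDE, 276 in HPAF1, 558 in L3.6, 515 in PANC1 and 1283 in SU86.86. SU86.86 was the highest line for POLM and LIG4. XRCC6, a subunit of the Ku ring, was at 2170 in HPDE, 3674 in HPAF1, 6700 in L3.6, 6473 in PANC1 and 5578 in SU86.86. UNG, the uracil glycosylase, was at 949 in HPDE, 676 in HPAF1, 2642 in L3.6, 3298 in PANC1 and 2932 in SU86.86. HPDE was the lowest line for XRCC6 and HPAF1 for UNG. DDB2, a sensor of ultraviolet damage, was at 393 in HPDE, 291 in HPAF1, 870.3 in L3.6, 1034 in PANC1 and 531 in SU86.86. The mismatch repair gene PMS1 was at 1320 in HPDE, 940.5 in HPAF1, 1246 in L3.6, 1277 in PANC1 and 510 in SU86.86, its lowest line. The test of a difference between these lists and the members was not made.

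Of the 30 members 15 had more than 1 probe set above the level filter. The rest had 1, among them RAD54L, FANCG, FANCE, UBE2T, BLM and RAD51AP1, so no other probe set checks their order. All probe sets of a gene gave the same order of the 5 lines for 5 of the 15 with several, namely BRCA1, BRIP1, RAD51C, RAD51D and FANCI. The lowest line was the same on all of them for 7 genes and the highest for 9. Where the one used differed at least 2-fold from HPDE, another probe set of the gene could be compared 25 times. It had the same direction 23 times and was itself at least 2-fold in 13. The 2 opposite values were those of ATM in L3.6. The 3 probe sets of FANCI placed HPAF1 lowest and L3.6 highest, as did both of BRCA1 and both of RAD51C.

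**Figure D4:**
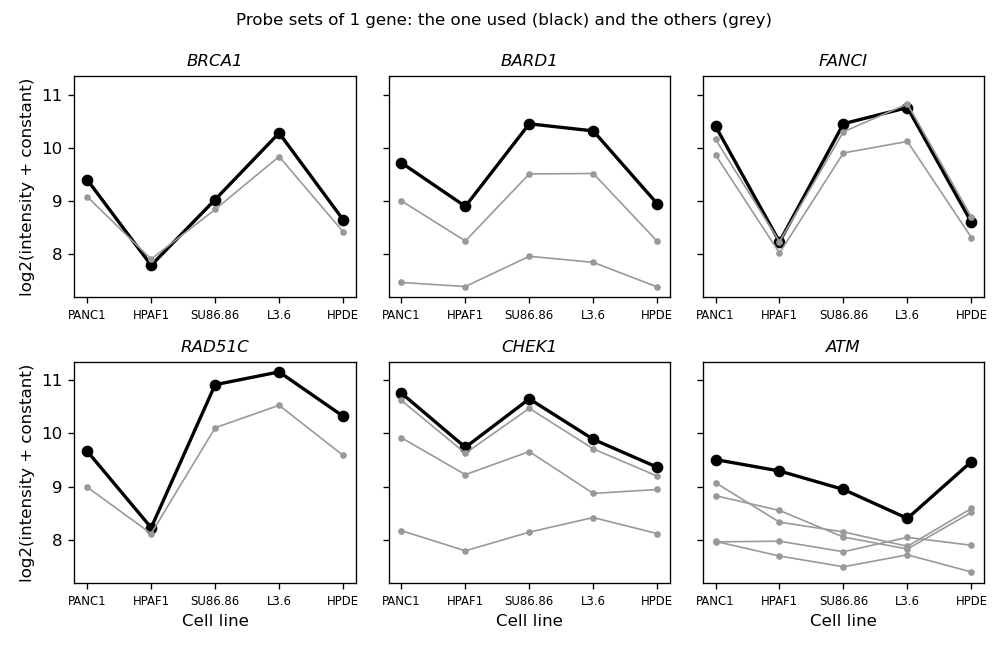
Level of every probe set above the filter for 6 genes in each line, as log2(intensity + constant), with the one used in black and the others in grey. The order of the lines is the same on every probe set of BRCA1, FANCI and RAD51C, while 2 of the 4 probe sets of CHEK1 depart from the one used. For ATM only the second brightest of the 5 keeps the order of the one used, and for BARD1 no other probe set does.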

How the data were processed

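Total RNA of 5 lines was hybridised to 1 array per line after biotin labelling, per the labels' protocols. The deposited values are linear intensities for 54675 probe sets. How the authors made the intensities: not given in the sources used here. Array medians were close, so no further normalization was applied. Of the probe sets, 62 were controls, 41091 carried 1 symbol, 1801 several and 11721 none listed. Symbols were updated through RefSeq (GRCh38.p14, 41037 matched), from which the promoter windows also come. Values were taken as log2(intensity + 71.1), the constant being the 25th percentile. The probe set with the highest mean on that scale was kept per gene. Each line was compared with the other 4 by limma 3.58.1 in R 4.3.3, two-sided, with Benjamini-Hochberg adjustment over 14894 genes. The fit was run on simulated data that gave every gene the same spread, which does not test it on genes of unequal spread. A gene is called 2-fold at a log2 difference of 1.

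The members, lists and tests were chosen with earlier results of these data known. Values in every line are given for up to 4 members per role with the widest range and up to 4 genes of each other list, and MKI67 and PCNA were always named. The other members are given by range. Alternatives covered the constant, normalization, level filter, probe set, limma trend and lines left out. With 1 array per line, the number of arrays limits the precision.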

Additional observations from a re-analysis of the deposited data

How the results depend on the processing

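Of 716 recomputed values of single members' 2-fold differences (60 values over the line comparisons), 210 moved by more than the largest spike-in spread and 0 changed direction, which differences chosen for being 2-fold would seldom do, and 0 members passed limma under any of them. Without the added constant, the members at least 2-fold higher than the other lines numbered 5 in PANC1 and 4 in SU86.86, 1 was lower in L3.6, and 2 genes passed limma in PANC1 and 0 in HPDE. With a constant of 16 there were 4 higher in SU86.86 and 1 lower in L3.6. With the constant at the median of all probe sets SU86.86 had 0 higher, and L3.6 had 1 member at least 2-fold lower than HPDE, as after quantile normalization, where SU86.86 also had 0. The mean of all probe sets gave 1 higher in SU86.86, 1 lower than HPDE in L3.6 and 1 gene past limma in HPDE. Without probe sets of shared-match suffix 1 member was lower than HPDE in L3.6 and 1 gene passed limma in PANC1. With the probe set of widest range 1 member was lower than HPDE in L3.6. No level filter gave 8 genes past limma in PANC1 and 79 in HPAF1. The stricter filter gave 1 in HPDE, a members' median of -0.58 for HPAF1 against the others (-0.39 as reported) and of 0.74 for PANC1 minus HPDE. The intensity trend gave 10 genes in PANC1, 104 in HPAF1 and 2 in SU86.86.

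With each line left out in turn, members at least 2-fold higher than the other lines ranged from 3 to 10 in L3.6, 2 to 6 in PANC1 and 0 to 5 in SU86.86. Members lower ranged from 0 to 1 in both L3.6 and PANC1. The members' median ranged from -0.57 to -0.34 in HPAF1 and from -0.073 to 0.281 in SU86.86. Genes past limma numbered 0 in PANC1, HPAF1 and HPDE whichever other line was left out. The causes were not tested. No paired analysis was possible because each line has 1 array and the labels give no replicate numbers. Dim probe sets near the median of all probe sets limit the low values of BLM and RAD54L in HPAF1 and HPDE, and of BRCA1 in HPAF1, where differences are compressed.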
